A study of Mus musculus with 9 samples.

Results

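Expression of 6 mouse genes of DNA mismatch repair and homologous recombination, Msh6, Msh3, Exo1, Brca1, Brca2 and Blm, was described in fibroblasts that carry SV40 large T antigen with or without added N-ras and in their parental line. Every probe set whose platform annotation gave exactly 1 symbol, that of one of these 6 genes, was taken, which gave 12 of the 22690 probe sets on the arrays, and 6 of the 12393 genes that have such a probe set. They were 4 probe sets for Brca1, 3 for Msh3, 2 for Exo1 and 1 each for Msh6, Brca2 and Blm. No filter on low values was applied in the main fit, so all 12 stayed in its tests. An alternative fit limited to probe sets at or above the median level kept 5 of the 12.

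The study asked how wild-type N-ras alters cells transformed by simian virus 40 (SV40), and profiled 3 related lines on Affymetrix mouse arrays with 3 arrays each. SV5-NN4 is a stable clone that carries SV40 large T antigen and wild-type Nras; SV5 is a stable clone transformed by SV40 large T antigen; and NIH 3T3, an immortal mouse embryo fibroblast line, is the wild-type parent that both share. Each derived line is 1 clone, so the effect of an introduced gene cannot be told apart from a difference between clones, and the promoters that drive the introduced genes were not stated in the descriptions used here. All lines grew in medium with 10% calf serum, and 5 µg of total RNA per array was labelled by the one-cycle method.

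Mismatch repair corrects the base mismatches and small loops that DNA polymerases leave behind. A MutS heterodimer recognises the error: its MSH6 form binds base mismatches and short loops, and its MSH3 form binds larger loops. The exonuclease EXO1 then removes the faulty strand, and it also helps to resect the ends of DNA breaks. In homologous recombination BRCA1 promotes resection, BRCA2 loads the recombinase onto the exposed single strand, and the RecQ helicase BLM takes apart joined intermediates without crossing over. Many of these genes are transcribed most in late G1 and S phase under E2F factors, which the retinoblastoma proteins restrain; T antigen binds those proteins.

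Msh6 and Brca1 were higher in SV5-NN4 than in NIH 3T3, by 3.87-fold and 3.48-fold, and were the only members called in any comparison of the main, paired fit. SV5 lay between these lines for both genes. Over 15 alternative fits the Msh6 call was lost in 9 and the Brca1 call, made at its brightest probe set only, in 7. Brca2 was 1.89-fold higher in SV5-NN4 than in NIH 3T3 and just missed the threshold, with an adjusted p of 0.055 in limma. Exo1 and Blm differed less. Msh3 was dim in every line, with 4.62 to 5.9 (log2) on its brightest probe set against 3.18 to 4.25 for bacterial control probe sets. Between SV5-NN4 and SV5 the brightest probe set of each of the 6 genes was higher in SV5-NN4 in 3 of 3 pairs of arrays, yet none was called. Among all 12 probe sets of these genes 8 were higher in 3 of 3 pairs, against 20.9% of all 22690.

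Promoter windows, from 250 bases before to 50 bases after the transcription start, were available from RefSeq for 5 of the 6 genes on GRCm38.p6. They were searched on both strands for E2F motifs (TTTCCCGC, TTTCGCGC, TTTGCCGC or TTTGGCGC), the CCAAT box (CCAAT), the cyclic AMP response element (TGACGTCA) and the GC box (GGGCGG). The windows of the called genes, of Brca2 and of the dim Msh3 are printed 5′ to 3′ on the gene's strand, with every match in capitals.
Msh6, chr17:87974800-87975099, plus strand: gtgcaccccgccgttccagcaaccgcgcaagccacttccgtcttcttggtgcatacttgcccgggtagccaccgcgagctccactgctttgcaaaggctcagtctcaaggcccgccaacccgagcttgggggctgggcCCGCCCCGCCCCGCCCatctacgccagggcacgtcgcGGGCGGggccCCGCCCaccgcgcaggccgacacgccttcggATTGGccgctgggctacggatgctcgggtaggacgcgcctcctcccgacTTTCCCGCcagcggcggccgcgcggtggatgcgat
Brca1, chr11:101551906-101552205, minus strand: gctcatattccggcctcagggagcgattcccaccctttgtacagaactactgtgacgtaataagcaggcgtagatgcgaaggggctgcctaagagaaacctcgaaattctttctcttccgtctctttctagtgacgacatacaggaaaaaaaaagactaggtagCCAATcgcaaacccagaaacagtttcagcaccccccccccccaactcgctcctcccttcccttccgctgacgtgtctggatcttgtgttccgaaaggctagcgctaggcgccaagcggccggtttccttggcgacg
Brca2, chr5:150522371-150522670, plus strand: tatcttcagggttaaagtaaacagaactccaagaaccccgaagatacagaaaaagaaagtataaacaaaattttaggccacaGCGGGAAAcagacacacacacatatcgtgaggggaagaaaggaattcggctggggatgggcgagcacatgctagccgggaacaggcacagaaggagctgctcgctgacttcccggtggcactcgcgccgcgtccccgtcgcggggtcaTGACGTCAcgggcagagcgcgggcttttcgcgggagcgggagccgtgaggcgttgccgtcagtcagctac
Msh3, chr13:92354954-92355253, minus strand: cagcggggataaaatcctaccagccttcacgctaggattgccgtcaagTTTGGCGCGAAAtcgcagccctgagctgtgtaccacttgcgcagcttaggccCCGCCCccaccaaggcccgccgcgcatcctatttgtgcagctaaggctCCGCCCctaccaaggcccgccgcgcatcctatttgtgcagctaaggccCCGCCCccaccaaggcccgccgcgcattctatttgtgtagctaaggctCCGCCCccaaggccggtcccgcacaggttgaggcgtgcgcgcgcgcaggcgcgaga

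Among the 5 windows 3, those of Msh6, Brca2 and Msh3, held a match to the E2F letters, as did 2.3% of the 32817 windows of this length in the table. A match describes the letters and shows no binding, and its absence says only that these letters are not in the window. In Msh6 it began 16 bases after the start, and in Brca2 it lay on the opposite strand from base -168. In Msh3 the capitals from base -202 are 2 overlapping matches on opposite strands. The windows of Brca1 and Blm held none of the E2F letters. Whether matches go with the differences between lines was not tested. A CCAAT box was found in Msh6, Brca1 and Blm (37.4% of all windows) and the cyclic AMP response element in Brca2 (1.8%). GC boxes, present in 35.6% of windows, numbered 5 in Msh6, 3 of which overlap by their end letters, 4 in Msh3 and 3 in Blm. The 4 in Msh3 were spaced exactly 48 bases apart, and the printed window shows that the sequence around them repeats with them.

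**Figure D1:**
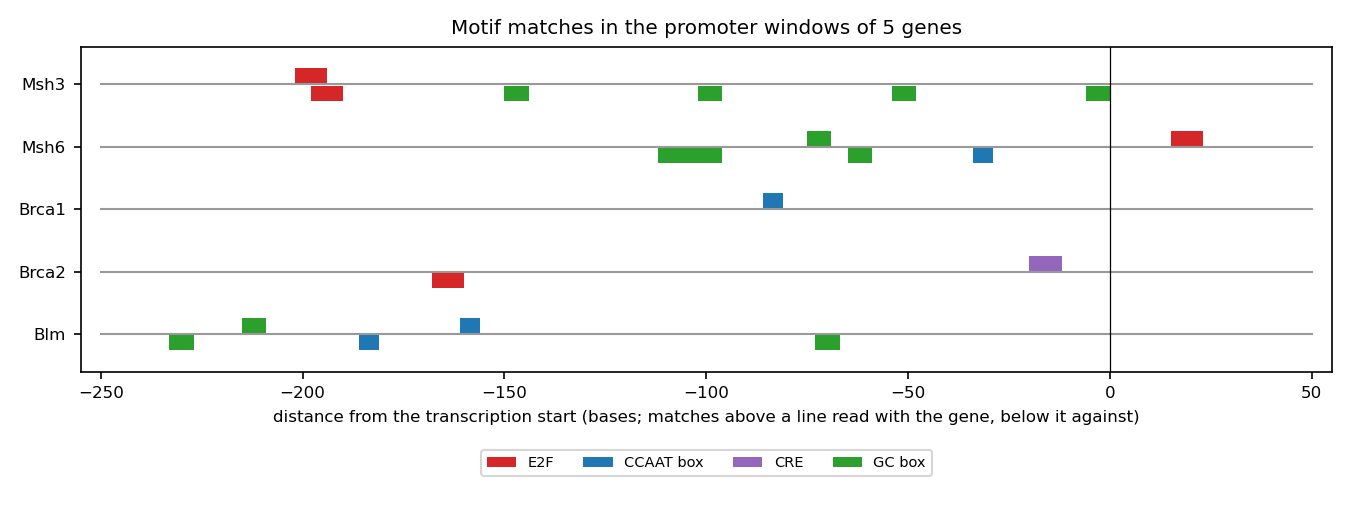
Motif matches in the promoter windows of Msh3, Msh6, Brca1, Brca2 and Blm, with distance from the transcription start in bases on the horizontal axis. Coloured bars are matches, above the line on the gene's strand and below it on the other; the 4 evenly spaced GC boxes of Msh3 and the E2F match just after the start of Msh6 stand out.

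The values are log2(intensity + 1) throughout, and a difference of 1 is a 2-fold change. The arrays differed by replicate number as well as by line. Replicate 3 of the lines had upper quartile intensities of 218.7 to 239.7. Replicate 1 had 173.8 to 184.8 and replicate 2 had 165.2 to 187.3, so this measure sets apart replicate 3 only. Arrays of equal number were treated as pairs on the correlations between arrays given in the processing section. The replicate number was a term of the limma fit. Control probe sets against the bacterial transcripts Dap, Lys and Trpn, 9 in all, gave the range of 3.18 to 4.25 that is taken as the floor. The fibroblast label was checked on markers: 10 of 11 fibroblast markers had a mean of at least 5.93, the median probe set level, in every line, while 0 of 5 epithelial and 0 of 3 endothelial markers reached it in any line and 1 of 3 leukocyte markers, Cd3e, did so. The fibroblast markers were themselves lower in SV5-NN4, with a median difference of -1.05 and 4 called lower against SV5 and -0.53 with 3 called lower against NIH 3T3; their part in the results was not tested. The 3 Nras probe sets differed between SV5-NN4 and SV5 by 0.05 to 0.27, with interval upper bounds of at most 0.62, so added Nras was not detectable and the labels have no check from it. RNA integrity was read from the difference between probe sets at the 3′ and 5′ ends of a transcript, which was 2.42 to 5.06 for Actb and 2.36 to 5.21 for Gapdh. This difference was larger in SV5-NN4 than in SV5 in each pair for both genes, for Actb at 4.07, 4.63 and 3.66 in SV5-NN4 against 3.73, 4.32 and 2.42 in SV5. NIH 3T3 replicate 3 had the largest differences of all 9 arrays, 5.06 for Actb and 5.21 for Gapdh, where SV5-NN4 replicate 3 had 3.66 and 3.05. Without that NIH 3T3 array, Msh6 differed by 1.98 and Brca1 by 1.74 between SV5-NN4 and NIH 3T3, and neither was called (adjusted p = 0.071 and 0.054, within 0.0086 to 0.98 for Msh6 and 0.0044 to 0.54 for Brca1 over the alternatives). The part of RNA integrity in the comparison of SV5-NN4 with SV5 was not tested.

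Msh6 encodes the mismatch-binding subunit of the main MutS form, and its promoter is the one printed with an E2F match after the start. Its probe set, 1416915_at, read 8.36, 7.61 and 9.7 in SV5-NN4 (replicates 1, 2 and 3), 7.03, 6.98 and 8.52 in SV5, and 6.98, 5.08 and 7.74 in NIH 3T3. The highest array of each line was replicate 3 and the lowest replicate 2, so the lines overlap when the pairs are ignored, while within each pair SV5-NN4 was highest and NIH 3T3 lowest. The means were 8.55 ± 1.06 in SV5-NN4, 7.51 ± 0.87 in SV5 and 6.6 ± 1.37 in NIH 3T3 (SD, n = 3 each). Against NIH 3T3, Msh6 rose by 1.95 in SV5-NN4 (SE 0.31, 95% interval 1.23 to 2.67, adjusted p = 0.038), with pair differences of 1.38, 2.52 and 1.96. Lines took 43.2% of the total spread of Msh6 over the arrays, and differences within neither line nor replicate number 6.8%, the rest lying between replicate numbers. In a fit without the pairing the same difference had an SE of 0.78 and an adjusted p of 0.98, the upper end of 0.0086 to 0.98 over the alternatives.

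The steps on either side of SV5 were each near 2-fold and neither was called. Msh6 was higher in SV5-NN4 than in SV5 by 1.04 (SE 0.31, 95% interval 0.33 to 1.76, adjusted p = 0.19), and the pairs gave 1.33, 0.62 and 1.18. It was higher in SV5 than in NIH 3T3 by 0.91 (95% interval 0.19 to 1.63, adjusted p = 0.26). In that comparison the pairs were uneven, at 0.05, 1.9 and 0.78, and without NIH 3T3 replicate 2, which read 5.08, the difference was 0.52. Neighbouring lines in the order SV5-NN4, SV5, NIH 3T3 thus did not differ past the threshold, and the ends of the order did.

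Msh3 encodes the subunit that directs MutS to larger loops, and its promoter is the one with evenly spaced GC boxes. Its brightest probe set, 1424166_at, read 4.97, 4.93 and 5.9 in SV5-NN4, 4.88, 4.7 and 5.04 in SV5, and 4.88, 4.62 and 4.82 in NIH 3T3. These are less than 2 log2 units above the floor, and 1 array, SV5-NN4 replicate 3, stands above the other 8. The difference was 0.39 between SV5-NN4 and SV5 (95% interval -0.07 to 0.86, adjusted p = 0.49) and 0.49 between SV5-NN4 and NIH 3T3 (95% interval 0.03 to 0.96, adjusted p = 0.26). Without SV5-NN4 replicate 3 these differences were 0.13 and 0.23, and without NIH 3T3 replicate 3 the second was 0.32. The second Msh3 probe set, 1422261_a_at, had line means of 4.46 in SV5-NN4, 4.42 in SV5 and 4.41 in NIH 3T3, and the third, 1430643_at, had means of 3.7, 3.62 and 3.99 in the same lines, all within the range of the bacterial controls. No change of Msh3 was called, and a change could have been missed at this signal.

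Exo1 encodes the exonuclease that acts after mismatch recognition. At its brighter probe set, 1418026_at, it read 6.87, 6.01 and 7.34 in SV5-NN4, 6.21, 5.92 and 6.24 in SV5, and 6.7, 5.22 and 6.02 in NIH 3T3. SV5-NN4 was highest in every pair, but NIH 3T3 replicate 1 lay above all 3 SV5 arrays, so SV5 and NIH 3T3 had no constant order. SV5-NN4 exceeded SV5 by 0.62 (SE 0.26, adjusted p = 0.39) and NIH 3T3 by 0.76 (SE 0.26, adjusted p = 0.2). Without SV5-NN4 replicate 3 these differences were 0.35 and 0.5. Without NIH 3T3 replicate 1 the difference from NIH 3T3 was 1.07 and was called (adjusted p = 0.041, within 0.041 to 1 over the alternatives). SV5 and NIH 3T3 differed by 0.14, with an interval of -0.48 to 0.76. The dimmer Exo1 probe set, 1418027_at, read 4.17 to 4.98 on the 9 arrays and went the other way against NIH 3T3, with -0.14 for SV5-NN4 and -0.38 for SV5, neither of them called (adjusted p = 0.72 and 0.36). It is dim, with its lowest array inside the bacterial control range.

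Brca1 encodes a ubiquitin ligase that promotes end resection and is needed for recombination; its printed promoter holds a CCAAT box and none of the other motifs. Its brightest probe set, 1424629_at, read 7.35, 6.79 and 8.12 in SV5-NN4, 6.43, 6.05 and 6.79 in SV5, and 6.17, 4.66 and 6.04 in NIH 3T3. All 3 SV5-NN4 arrays lay above all 3 NIH 3T3 arrays. The means were 7.42 ± 0.67 in SV5-NN4, 6.42 ± 0.37 in SV5 and 5.62 ± 0.84 in NIH 3T3 (SD, n = 3 each). Brca1 rose by 1.8 in SV5-NN4 against NIH 3T3 (SE 0.23, 95% interval 1.25 to 2.34, adjusted p = 0.023), and the pairs gave 1.19, 2.13 and 2.08. At this probe set lines took 65.4% of the spread and replicate numbers 28.3%, against 21.8% and 61.1% over all probe sets. The share of the lines describes the same values as the call and is no separate support for it. Without the pairing the adjusted p was 0.54, within a range of 0.0044 to 0.54 over the alternatives.

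As with Msh6, both smaller steps of Brca1 were positive in 3 of 3 pairs and not called. SV5-NN4 exceeded SV5 by 1.0 (SE 0.23, 95% interval 0.45 to 1.54, adjusted p = 0.11), and SV5 exceeded NIH 3T3 by 0.8 (SE 0.23, 95% interval 0.26 to 1.35, adjusted p = 0.21). The pairs of SV5 with NIH 3T3 were uneven, at 0.26, 1.39 and 0.75. Without NIH 3T3 replicate 2, which read 4.66, that difference was 0.57. The other Brca1 probe sets did not follow the brightest. Probe set 1427698_at, with line means of 5.25 in SV5-NN4, 5.03 in SV5 and 5.08 in NIH 3T3, differed by 0.18 between SV5-NN4 and NIH 3T3 (95% interval -0.21 to 0.57). Probe sets 1451417_at and 1424630_a_at had line means of 3.7 to 4.06, within the bacterial controls, and carry no usable difference. The call on Brca1 thus rests on 1 of its 4 probe sets, the others lying below the median probe set level. The line means of 1427698_at lie above the bacterial controls, and why it did not follow the brightest was not tested.

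Brca2 encodes the protein that loads the recombinase. It read 8.2, 7.78 and 8.31 in SV5-NN4, 7.82, 6.85 and 7.41 in SV5, and 7.18, 6.72 and 7.61 in NIH 3T3 at probe set 1419076_a_at. The SV5-NN4 arrays all lay above the NIH 3T3 arrays, whereas SV5 and NIH 3T3 overlapped. The means were 8.1 ± 0.28 in SV5-NN4, 7.36 ± 0.49 in SV5 and 7.17 ± 0.45 in NIH 3T3 (SD, n = 3 each). SV5-NN4 exceeded NIH 3T3 by 0.92 (SE 0.18, 95% interval 0.51 to 1.33, adjusted p = 0.055) and SV5 by 0.73 (SE 0.18, 95% interval 0.32 to 1.14, adjusted p = 0.12), with 3 of 3 pairs higher each time. Against NIH 3T3 it was called when only probe sets at or above the median level were tested (adjusted p = 0.047), and the adjusted p was 0.047 to 0.83 over the alternatives. SV5 and NIH 3T3 differed by 0.19 with an interval of -0.22 to 0.6, and 1 of the 3 pairs was negative. Unlike Msh6 and Brca1, whose difference from NIH 3T3 was spread over both steps, most of that of Brca2 lay between SV5-NN4 and SV5; whether the genes differ in this was not tested.

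Blm encodes the helicase that dissolves recombination intermediates. Probe set 1448953_at read 7.29, 7.0 and 7.11 in SV5-NN4, 6.52, 6.66 and 6.4 in SV5, and 7.59, 6.34 and 6.43 in NIH 3T3. Its order differed from that of the other genes: SV5 was lowest on average, and the 3 SV5-NN4 arrays lay above all SV5 arrays. SV5-NN4 exceeded SV5 by 0.6 (SE 0.26, 95% interval -0.0039 to 1.21, adjusted p = 0.39), with pairs of 0.77, 0.34 and 0.7, and by 0.36 without SV5 replicate 1. Against NIH 3T3 the difference was 0.35 in SV5-NN4 (adjusted p = 0.56) and -0.26 in SV5 (adjusted p = 0.69). Both moved with single NIH 3T3 arrays, of which replicate 1 read 7.59. Without it the values were 0.71 for SV5-NN4, which was then called (adjusted p = 0.046, within 0.046 to 1 over the alternatives), and 0.11 for SV5. Without NIH 3T3 replicate 2 or 3 the difference of SV5-NN4 was 0.12 or 0.2.

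**Figure D2:**
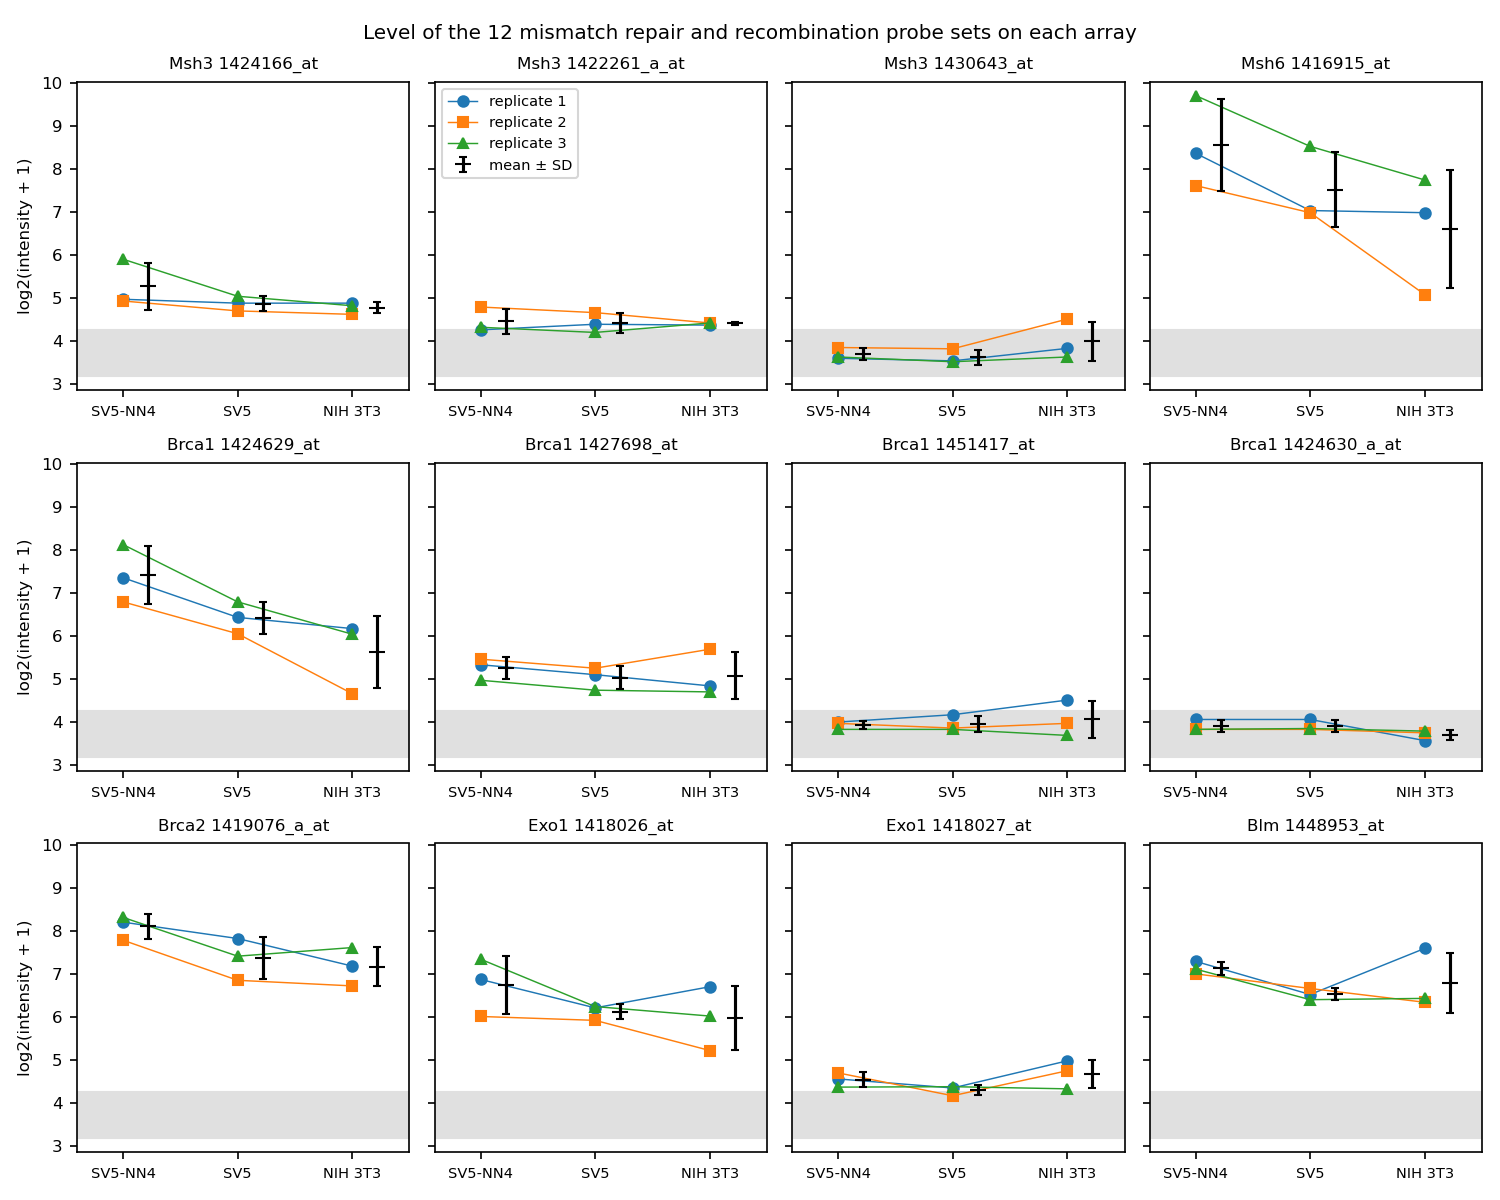
Levels of the 12 probe sets as log2(intensity + 1) on each array, with SV5-NN4, SV5 and NIH 3T3 from left to right in each panel. Coloured symbols joined by thin lines are arrays of equal replicate number, black bars are the mean ± SD of 3 arrays, and the grey band spans the bacterial controls, 3.18 to 4.25. Msh6 and Brca1 at 1424629_at descend from left to right in every replicate. So does the dim Msh3 at 1424166_at, by only 0.0019 from SV5 to NIH 3T3 in replicate 1. The line means of Brca1 1451417_at, Brca1 1424630_a_at and Msh3 1430643_at lie in the band.

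Read together, the comparison of SV5-NN4 with NIH 3T3 called 2 of the 12 probe sets, Msh6 and Brca1, both higher, where 1.14% of all 22690 probe sets were called higher. The count lies above that share, but 12 probe sets on the same arrays make it a description only. At an unadjusted p under 0.05 there were 5 of 12 higher and 0 lower, against 10.0% and 7.1% of all probe sets. All SV5-NN4 arrays lay above all NIH 3T3 arrays for 4 of 12, against 3.34% of all, and SV5-NN4 was higher in 3 of 3 pairs for 6 of 12, against 16.9% of all. Both of these counts include the dim Brca1 1424630_a_at, whose line means lie within the bacterial controls. The median difference over the 6 brightest probe sets was 0.84, and that over all 12393 genes was -0.03. The call of Brca1 was lost without any SV5-NN4 array or without NIH 3T3 replicate 2 or 3, with adjusted p of 0.054 to 0.17, and that of Msh6 in the same cases and without SV5 replicate 3, with adjusted p of 0.055 to 0.22. Both were also lost with only these lines in the fit (adjusted p = 0.078 for each), and Msh6 after quantile normalization (adjusted p = 0.057); the ranges over the alternatives are those given above.

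The comparison of SV5-NN4 with SV5 bears on what accompanies added N-ras in transformed cells. It called 0 of the 12 probe sets in limma, where 0.309% of all probe sets were called higher, and 3 of 12, those of Msh6, Brca1 and Brca2, were higher at an unadjusted p under 0.05, against 6.64%. All SV5-NN4 arrays lay above all SV5 arrays for 1 of 12, that of Blm, against 4.21% of all. Of the 12 probe sets, 8 were higher in 3 of 3 pairs, against 20.9% of all, and none was lower in all pairs, against 19.6%. The median over the 6 brightest was 0.67, against 0.01 over all genes. Fitted on these lines alone, 4 were called, all higher: Brca1 (adjusted p = 0.017), Msh6 (adjusted p = 0.019), Brca2 (adjusted p = 0.038) and Blm (adjusted p = 0.046). Without NIH 3T3 replicate 1, an array of neither line, 2 were called, Brca1 (adjusted p = 0.021) and Msh6 (adjusted p = 0.048). Over the alternatives the adjusted p ran up to 1 for each of these 4 genes.

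The comparison of SV5 with NIH 3T3 bears on transformation by T antigen. It also called 0 of the 12 in limma, where 0.0441% of all probe sets were called higher, and 0 in every alternative fit. At an unadjusted p under 0.05, 2 were higher, Msh6 and Brca1, against 8.56% of all probe sets. Lower at that level was 1, Msh3 1430643_at, which lies in the control range, against 5.65%. SV5 was higher in 3 of 3 pairs for 4 of 12, against 12.9%, and all SV5 arrays lay above all NIH 3T3 arrays for 1 of 12, the dim Brca1 1424630_a_at, against 2.16%. Over the 6 brightest probe sets the median difference was 0.17 and over all genes -0.03. These comparisons share arrays: SV5 stands in both steps and SV5-NN4 and NIH 3T3 in the contrast of the ends, so their values are not independent of each other.

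**Figure D3:**
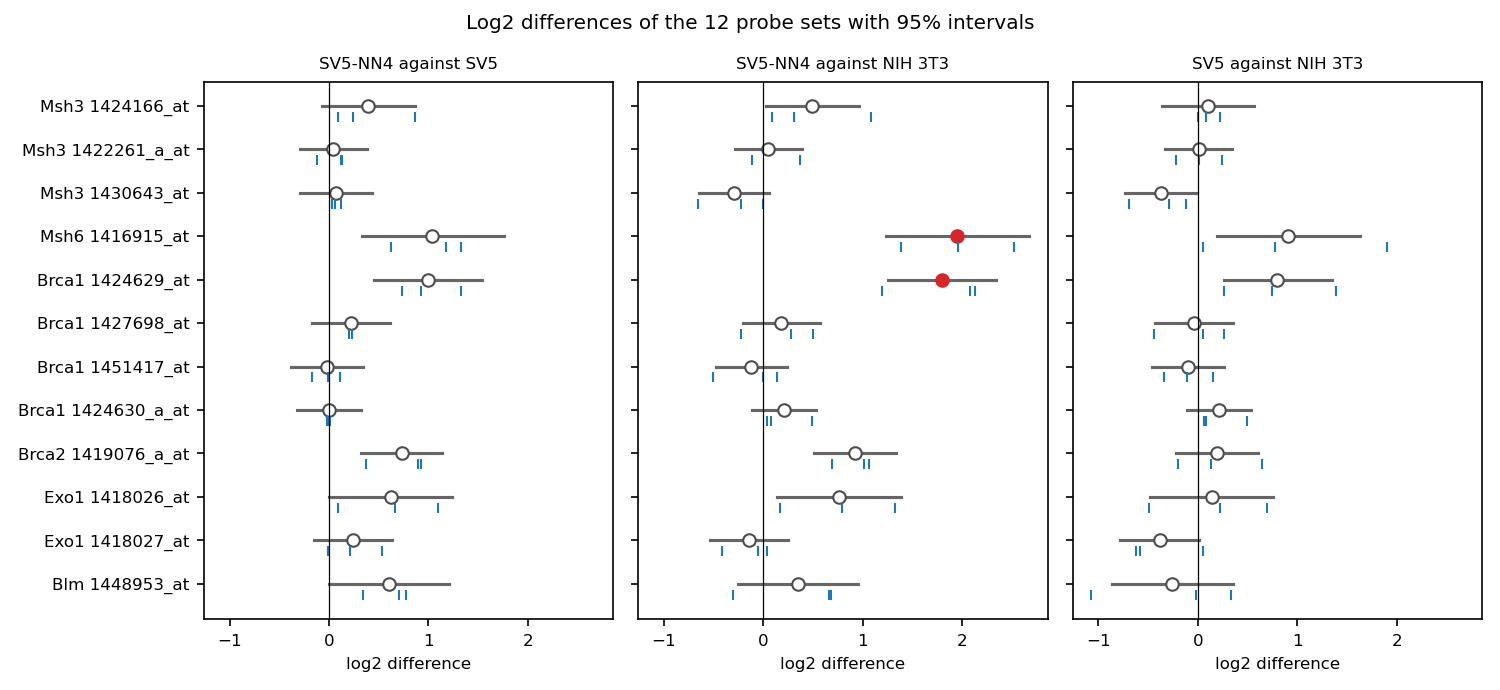
Log2 differences of the 12 probe sets for SV5-NN4 against SV5, SV5-NN4 against NIH 3T3 and SV5 against NIH 3T3, from the paired limma fit. Circles are differences, filled red where the adjusted p was under 0.05, grey lines are 95% intervals and blue ticks are the 3 pairs; the filled circles are Msh6 at 1.95 and Brca1 at 1.8 in the middle panel.

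The brightest probe sets of 5 of the 6 genes, all but Blm, had their lowest value on the replicate 2 array in each of the 3 lines. The share of all probe sets with this pattern was not counted, so it is not shown to be particular to these genes. Over all probe sets, replicate number took 61.1% of the spread. The replicate 2 arrays also had the highest signals of bioB, a control transcript added at hybridisation, at 8.65 to 9.25, where replicate 1 of the lines read 7.13 to 7.62 and replicate 3 read 6.27 to 7.46. The part of hybridisation in the members' values was not tested, and differences within pairs are set out above for this reason.

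Other genes of the same pathways were taken from lists, each gene at its brightest probe set. Few passed the test. Of 4 measured genes of mismatch repair outside the set, 0 were called in any comparison, and their median differences were 0.32 for SV5-NN4 against SV5, 0.18 for SV5-NN4 against NIH 3T3 and -0.12 for SV5 against NIH 3T3. Pms2, an endonuclease subunit that nicks the faulty strand, had the highest difference, 0.51 against SV5 and 0.36 against NIH 3T3 in SV5-NN4 (adjusted p = 0.13 and 0.22). The lowest in SV5-NN4 was that of the meiotic Msh4, with -0.06 against SV5 and -0.14 against NIH 3T3. In SV5 against NIH 3T3 all 4 lay below 0, down to -0.19 for Msh5, also a meiotic gene.

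Among 4 genes of resection and end processing, Rad50, a subunit of the complex that senses broken ends, rose by 0.84 in SV5-NN4 against NIH 3T3 (SE 0.14, adjusted p = 0.04, higher in 3 of 3 pairs). It was the only called gene of the recombination lists, and differed by 0.54 between SV5 and NIH 3T3 (adjusted p = 0.17). Its call was lost in 10 of the 15 alternatives, among them those without any one SV5-NN4 or SV5 array or without NIH 3T3 replicate 2, with adjusted p up to 0.84. The nuclease and helicase Dna2 had the highest difference in SV5-NN4, 1.08 against SV5 and 0.98 against NIH 3T3 (adjusted p = 0.29 and 0.26), and the lowest in SV5 against NIH 3T3, -0.1. All 4 genes lay above 0 in both comparisons of SV5-NN4.

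Of 7 strand exchange genes, 0 were called in any comparison. Rad54l, a translocase that aids strand invasion, had a difference of 1.27 in SV5-NN4 against both SV5 (adjusted p = 0.081) and NIH 3T3 (adjusted p = 0.065). Rad52 had the lowest difference against SV5, -0.73 (adjusted p = 0.14), and the highest in SV5 against NIH 3T3, 0.45. The lowest against NIH 3T3 were -0.37 for the meiotic recombinase gene Dmc1 in SV5-NN4 and -0.25 for both Dmc1 and Rad51ap1 in SV5. Median differences were -0.02, 0.23 and 0.11 for SV5-NN4 against SV5, SV5-NN4 against NIH 3T3 and SV5 against NIH 3T3.

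Of 5 measured partners of Brca1 and Brca2, 0 were called. Brcc3, a deubiquitinase of a Brca1 complex, had the highest difference each time, with 0.49 in SV5-NN4 against SV5, 1.01 in SV5-NN4 against NIH 3T3 and 0.51 in SV5 against NIH 3T3 (adjusted p = 0.63, 0.16 and 0.49). The lowest were -0.36 and -0.04 for Sem1, a small Brca2-binding protein, in SV5-NN4 against SV5 and NIH 3T3, and -0.28 for Bap1 in SV5 against NIH 3T3. The partners' median differences of 0.3, 0.21 and 0.27 in these comparisons were below those of the 6 genes for both comparisons of SV5-NN4.

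Genes that dissolve or resolve recombination intermediates gave 0 calls among 9. The Mus81 partner Eme1 was highest in SV5-NN4, with 0.82 against SV5 and 0.72 against NIH 3T3 (adjusted p = 0.069 and 0.074). Wrn, a RecQ helicase like Blm, was lowest, with -0.49 against SV5 and -0.69 against NIH 3T3 (adjusted p = 0.25 and 0.093). In SV5 against NIH 3T3 the extremes were both RecQ helicase genes, Recql5 at 0.05 and Recql at -0.34.

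Of 9 Fanconi anaemia genes, which act with Brca1 and Brca2 at DNA crosslinks, 0 were called, and the median differences were 0.37 in SV5-NN4 against SV5, 0.34 in SV5-NN4 against NIH 3T3 and -0.29 in SV5 against NIH 3T3. The conjugating enzyme gene Ube2t had the highest difference against SV5, 1.2 (adjusted p = 0.28), and the lowest in SV5 against NIH 3T3, -0.61. Fanca was highest in SV5-NN4 against NIH 3T3 at 0.81 (adjusted p = 0.09), and Fance in SV5 against NIH 3T3 at 0.36. The lowest in SV5-NN4 were -0.15 for Fancg against SV5 and -0.49 for Fancc against NIH 3T3.

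Genes of S phase had higher median differences than any repair list in both comparisons of SV5-NN4. All 23 measured lay above 0 in SV5-NN4 against SV5, with a median of 0.91, and 4 were called higher: Gins1 rose by 1.47, Cdt1 by 1.42, Chaf1b by 1.4 and Mcm7 by 1.01 (adjusted p from 0.011 to 0.035). Cdc6, at 1.52, was the highest without a call (adjusted p = 0.13). Against NIH 3T3 all 23 were again above 0 in SV5-NN4, with a median of 1.08, and 8 were called: Mcm3 and Rrm1 rose by 1.52, Gins1 by 1.49, Mcm7 by 1.48, Cdt1 by 1.12, Cdc45 and Pola1 by 1.08 and Chaf1b by 1.05 (adjusted p from 0.0072 to 0.049). In SV5 against NIH 3T3 the median was 0.1 and 0 were called, with Mcm5 highest at 0.87 and Ccne2 lowest at -0.58. All 13 mitosis genes measured also lay above 0 in SV5-NN4, with medians of 1.02 against SV5 and 1.06 against NIH 3T3. Of these genes, 1 was called in SV5-NN4 against SV5 and 6 against NIH 3T3, all higher. Over all genes 52.2% lay above 0 in SV5-NN4 against SV5 and 44.9% in SV5-NN4 against NIH 3T3. Of the 17 calls made on repair and S phase genes in these lists, 0 held without the pairing and 0 to 17 held with 1 array left out, 0 without SV5-NN4 replicate 2 or 3. In bulk RNA more cells in S phase and more transcript per cell cannot be told apart, and the part of cell cycle in the values of Msh6 and Brca1 was not tested.

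**Figure D4:**
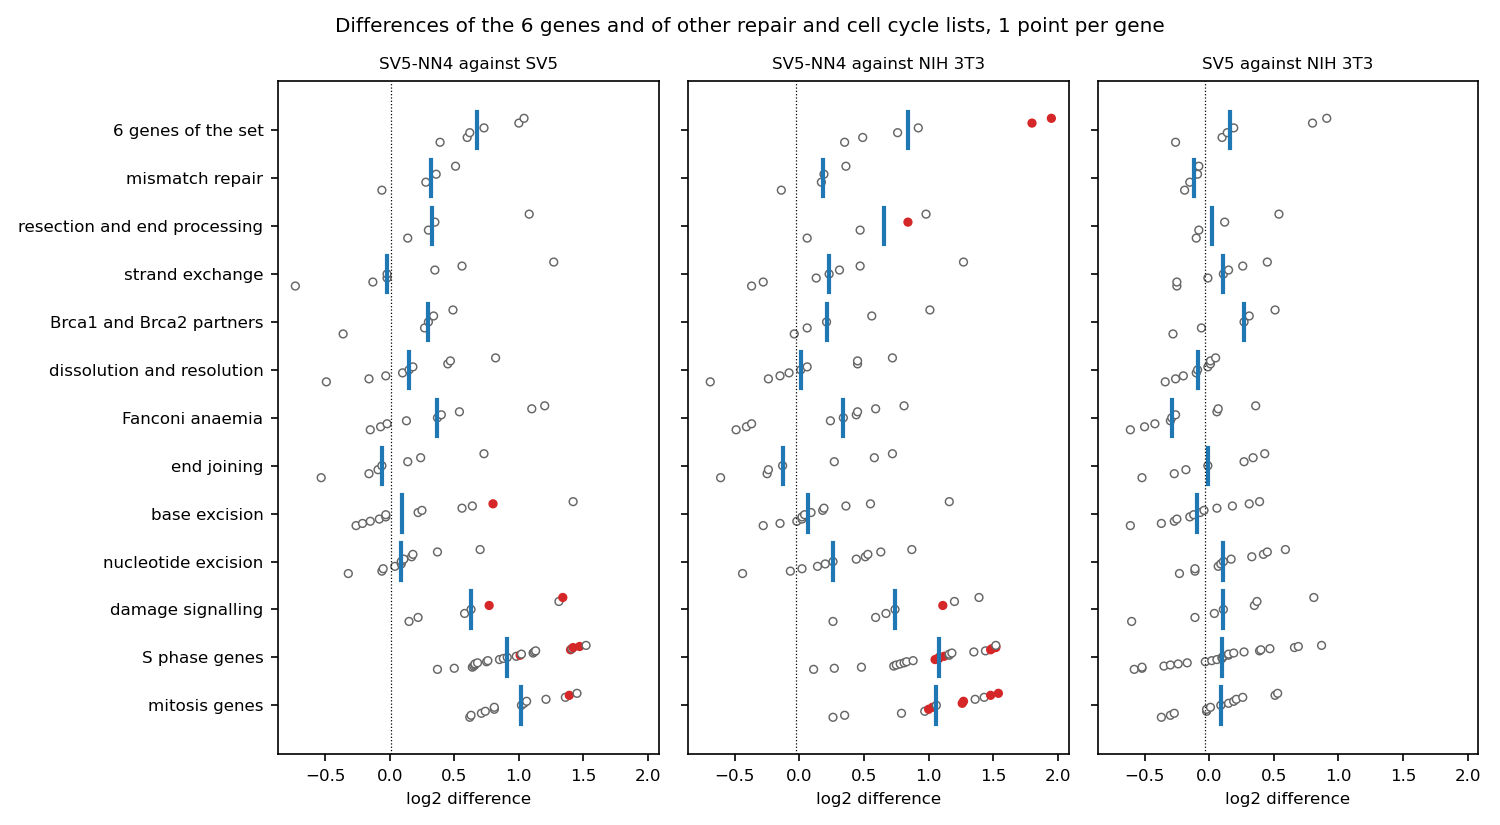
Log2 differences of the 6 genes at their brightest probe sets and of 12 lists of repair and cell cycle genes, 1 point per gene, for the same comparisons. Red points had an adjusted p under 0.05, blue bars are list medians and the dotted line is the median of all genes. The medians of the 6 genes were 0.67 in SV5-NN4 against SV5 and 0.84 against NIH 3T3. They lie above those of every repair list and below those of the S phase genes, 0.91 and 1.08, and mitosis genes, 1.02 and 1.06.

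Genes most alike to each member were ranked by Pearson's r over the 9 arrays, after the mean of each replicate number was subtracted, among 7137 other genes. The points fall into 3 lines of 3 arrays, so a high r can reflect a shared order of the lines or shared outlying arrays. No test was made. For Blm, lines took 34.0% of the spread and differences within neither line nor replicate number 37.4%. The same shares for Msh3 at 1424166_at were 37.2% and 27.1%. The genes most alike to Msh6 were Nubp2, an iron-sulphur cluster assembly factor, and the proteasome subunit genes Psmb7 and Psma1, with r of 0.986, 0.984 and 0.983. Those for Brca1 were Cse1l, a nuclear export factor for importin alpha, Fmc1 and Prelid3b, with r of 0.99, 0.984 and 0.982. Brca2 was most like Ppme1, Noc2l and Mrpl35, with r of 0.989 to 0.979. The differences of the genes alike to Msh6 and Brca1 in SV5-NN4 against NIH 3T3 were 0.94 to 1.42, smaller than those of Msh6 and Brca1 themselves. Exo1 had Nepro, Ncbp1 and Tpgs2 (r of 0.961 to 0.981), Msh3 had Pgs1, Usf2 and Zc3h8 (r of 0.969 to 0.988), and Blm had Zbtb18, the Ras family gene Rras2, and Jade1 (r of 0.979 to 0.992). The genes alike to Blm were all lower in SV5 than in NIH 3T3, by log2 differences of -0.6 to -0.21. They were higher in SV5-NN4 than in SV5, by 0.6 to 1.09. Blm has the same signs, and the choice of these genes by likeness to Blm on the same arrays makes shared signs likely.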

How the data were processed

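The authors deposited 1 linear intensity per probe set and array. The submitters' processing notes name RMA, without a version or settings; this method usually corrects background, normalizes between arrays and combines the probes of each set into 1 value. Values were used as log2(intensity + 1), which makes differences at dim probe sets a little too small. Groups and replicate numbers came from the sample titles. All 22690 probe sets were fitted with limma 3.58.1 in R 4.3.3 (lmFit and eBayes, default settings) on all 9 arrays, with line and replicate number as terms, and p-values were adjusted over all probe sets of a comparison by Benjamini-Hochberg. Calls are at an adjusted p under 0.05, and every adjusted p printed is from limma and this adjustment. Intervals are 95% intervals of the difference.

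The labels do not say what a replicate number shares. The pairing comes from the data: after each line's mean was subtracted, the 9 pairs of equal-numbered arrays of different lines correlated at r from 0.26 to 0.84 across probe sets, and the 18 other pairs at r from -0.73 to 0.11. Whether the replicates are separate cultures is not stated, and the p-values reflect only the spread of these arrays, which may be technical. The number of arrays limits the precision.

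Of the 22690 probe sets, 20393 had 1 symbol in the platform annotation, 691 had several and 1606 had none. A gene was represented by its brightest probe set over the 9 arrays, which gave 12393 genes. Names were updated by gene ID through a RefSeq table of GRCm38.p6, in which 20364 of the 20393 were found; promoter sequences are RefSeq's of the same assembly, and the build the authors used is not known here. The fit was tested on simulated data. The members, the 12 repair and cell cycle lists (143 entries, 111 measured) and the tests were chosen with earlier results of these data known. From the repair and S phase lists the text names every called gene and, per comparison, the gene with the highest difference above 0 and the gene with the lowest below 0; called mitosis genes are only counted. The 3 genes most alike to each member were ranked among 7137 genes whose brightest probe set reached the median level of 5.93 (log2). Alternatives were a fit without the block, only the lines compared, a pseudocount of 16, only probe sets at or above the median level, median centring, quantile normalization, and each array left out in turn.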

Additional observations from a re-analysis of the deposited data

How the results depend on the processing

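Directions of Msh6 and Brca1 in SV5-NN4 against NIH 3T3 were the same in every alternative, but their calls were not. Without the replicate block 0 of the 12 probe sets were called there, against 2 with it, and the calls over all probe sets were 19 against 196 for SV5-NN4 against SV5, 18 against 375 for SV5-NN4 against NIH 3T3 and 1 against 14 for SV5 against NIH 3T3. With only the lines compared, the 12 probe sets gave 4 calls for SV5-NN4 against SV5 and 0 for SV5-NN4 against NIH 3T3, and all probe sets gave 1504, 18 and, for SV5 against NIH 3T3, 0. After quantile normalization 1 of the 12 was called for SV5-NN4 against NIH 3T3, 180 of the 325 calls over all probe sets there were higher, against 258 of 375, and SV5 against NIH 3T3 gave 0 calls, as it did with a pseudocount of 16 and with arrays centred on their medians. With each array left out in turn, the 12 probe sets gave 0 to 2 calls for SV5-NN4 against SV5 and 0 to 4 for SV5-NN4 against NIH 3T3, and all probe sets gave 14 to 950, 13 to 1239 and, for SV5 against NIH 3T3, 0 to 49.

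Signs turned only at differences that were not called. Median centring gave 0.01 for Brca1 1424630_a_at in SV5-NN4 against SV5, and quantile normalization 0.01 for Brca1 1427698_at in SV5 against NIH 3T3. With 1 array left out the ranges that crossed 0 were, in SV5-NN4 against SV5, -0.06 to 0.12 for Msh3 1422261_a_at, -0.01 to 0.17 for Msh3 1430643_at, -0.09 to 0.11 for Brca1 1451417_at, -0.08 to 0.06 for Brca1 1424630_a_at and -0.12 to 0.03 for Msh4. In SV5-NN4 against NIH 3T3 they were -0.09 to 0.15 for Msh3 1422261_a_at, -0.25 to 0.03 for Brca1 1451417_at and -0.37 to 0.2 for Sem1. In SV5 against NIH 3T3 they were -0.08 to 0.23 for Msh3 1424166_at, -0.13 to 0.11 for Msh3 1422261_a_at, -0.2 to 0.16 for Brca1 1427698_at, -0.23 to 0.06 for Brca1 1451417_at, -0.01 to 0.34 for Brca2, -0.13 to 0.45 for Exo1 1418026_at and -0.48 to 0.11 for Blm. Among the listed genes of that comparison they were -0.51 to 0.4 for Dna2, -0.43 to 0.03 for Rad51ap1, -0.2 to 0.3 for Recql5, -0.95 to 0.03 for Ube2t and -1.27 to 0.52 for Ccne2. The cause of these changes was not tested, beyond the smaller number of arrays where arrays are left out. Low signal limits the Msh3 probe sets, the dimmer Exo1 probe set and Brca1 1451417_at and 1424630_a_at. The line means of Brca1 1427698_at lie above the bacterial control range, and the part of signal in its values was not tested.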

Other observations

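Damage signalling genes were the repair-related list with the highest median in SV5-NN4. All 7 measured lay above 0 against both SV5 (median 0.63) and NIH 3T3 (median 0.74). Chek2, a checkpoint kinase, rose by 1.34 in SV5-NN4 against SV5 (SE 0.16, limma adjusted p = 0.022, higher in 3 of 3 pairs), with means of 8.24 in SV5-NN4 and 6.9 in SV5, while it differed by -0.6 between SV5 and NIH 3T3 (adjusted p = 0.18). H2ax, the histone variant phosphorylated at DNA breaks, rose by 0.77 against SV5 (adjusted p = 0.039) and by 1.11 against NIH 3T3 (adjusted p = 0.014). Topbp1, an activator of the ATR kinase, had the highest difference against NIH 3T3, 1.39 in SV5-NN4 (adjusted p = 0.16) and 0.81 in SV5 (adjusted p = 0.43). None of these calls held without the replicate pairing or without any one SV5-NN4 array.

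Other repair routes moved little as lists. Of 12 base excision genes 1 was called: Fen1, the flap endonuclease, rose by 0.8 in SV5-NN4 against SV5 (adjusted p = 0.043), a call lost without the pairing and with the removal of any one SV5-NN4 or SV5 array, or NIH 3T3 replicate 2 or 3. The uracil glycosylase gene Ung had differences of 1.42 against SV5 and 1.16 against NIH 3T3 in SV5-NN4 (adjusted p = 0.06 and 0.079). The lowest base excision differences in SV5-NN4 were -0.26 for Lig3 against SV5 and -0.28 for Polb against NIH 3T3, and in SV5 against NIH 3T3 the extremes were Nthl1 at 0.39 and Parp1 at -0.61. Of 11 nucleotide excision genes 0 were called, with Ddb2, a damage recognition subunit, highest in SV5-NN4 at 0.7 against SV5 and 0.87 against NIH 3T3, and Xpc lowest at -0.32 and -0.44. In SV5 against NIH 3T3 Ercc3 was highest at 0.59 and Ercc4 lowest at -0.23.

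Of 7 end joining genes 0 were called, and the medians were -0.06 in SV5-NN4 against SV5, -0.13 in SV5-NN4 against NIH 3T3 and -0.01 in SV5 against NIH 3T3. Trp53bp1, whose product holds back resection, had the lowest differences against NIH 3T3, -0.61 in SV5-NN4 (adjusted p = 0.068) and -0.52 in SV5 (adjusted p = 0.16), and was lower in 3 of 3 pairs both times. Rif1, which acts with it, had the highest differences in SV5-NN4, 0.73 against SV5 and 0.72 against NIH 3T3, and Xrcc5 the lowest against SV5, -0.53. Prkdc, the catalytic subunit of the DNA-dependent kinase, was highest in SV5 against NIH 3T3 at 0.43.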
